A study of Mus musculus with 23 samples.

Results

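The comparison was between the hippocampi of XY and of XX mice that all had ovaries. The animals came from the FCG cross on a C57Bl/6J background. In this cross the testis-determining gene Sry is missing from the Y chromosome and is carried as an autosomal transgene, so the gonad no longer follows the sex chromosomes. Animals with ovaries do not carry the transgene. The XY group with ovaries (XYF, n = 6) and the XX group with ovaries (XXF, n = 5) therefore differed in the sex chromosomes and shared the ovary, the background strain and an age of about 12 months. They were taken by their animal labels and made up 11 of the 23 libraries of the series. The other 12 libraries came from animals with testes (XXM, n = 6, and XYM, n = 6) and were used for the shared estimate of the spread and for the test of a difference between gonads. All 13766 gene records were compared, and the 13275 autosomal ones are given apart from the 486 on the X and the 5 on the Y chromosome.

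Cells with XX chromosomes silence most genes of an X chromosome through the noncoding RNA Xist, but some genes escape, and several of these have a related copy on the Y. Cells sense viral nucleic acids through Toll-like receptors in endosomes, among them the X-encoded RNA receptor Tlr7, and through receptors in the cytosol such as Ddx58 (RIG-I). The interferon that follows acts through a complex of transcription factors that holds Irf9. It binds a promoter element called the interferon-stimulated response element (ISRE) and switches on antiviral effectors, GTPases that attack intracellular pathogens, and the MHC class I pathway that displays peptides to T cells. In the brain, microglia are the resident immune cells that carry most of this machinery. The single X chromosome of an XYF animal comes from its mother, and an XXF animal has X chromosomes from both parents, so parental origin, X number and the Y chromosome cannot be told apart here.

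Levels are given as CPM, the count of a gene scaled to the normalized total of its library. Differences are log2 fold changes, XYF over XXF, with standard errors that are approximate. Calls are those of edgeR's quasi-likelihood test at an adjusted p under 0.05 over all genes. Library totals ran from 10257790 to 36078235 in XXF and from 11548165 to 25636146 in XYF. As a check of labels, Y-linked Kdm5d, Uty, Ddx3y and Eif2s3y reached at most 5 counts in XXF libraries and at least 12.8 CPM in each XYF library. Xist stood at 1324 ± 142 CPM in XXF (SD, n = 5). In XYF it lay between 0.508 and 2.79 CPM in 5 libraries and at 94.1 CPM in XYF replicate 4, a library that also had the highest level of the striatal gene Rgs9 (108 CPM, against 24.2 to 29.7 in the other XYF libraries). Granule cell markers of the dentate gyrus summed to 282 to 380 CPM in XXF and 311 to 438 CPM in XYF, so the labelled tissue was represented in both groups. Choroid plexus markers, which belong to tissue beside the hippocampus, summed to 293 to 518 CPM in 4 XXF libraries and 3334 CPM in XXF replicate 1. In XYF they summed to 310 to 529 CPM in 5 libraries and 5894 CPM in XYF replicate 5. Among animals with testes, high sums were found in XXM replicates 1, 3, 4 and 5 (3545 to 4799 CPM) and XYM replicate 1 (4679 CPM). The red blood cell genes Hba-a1, Hba-a2 and Alas2 summed to 55.3 to 133 CPM in XXF and 108 to 256 CPM in XYF.

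Across all genes, 40 of 13766 (0.291%) were called, 36 higher and 4 lower in XYF. Of the autosomal genes, 26 of 13275 (0.196%) were higher in XYF and 0 were lower by edgeR. At an unadjusted p under 0.05 there were 366 autosomal genes on the higher and 313 on the lower side. DESeq2 called 2 autosomal genes lower, limma-voom 0, limma-voom with sample quality weights 3 and limma on the deposited log2 values 2. Of the 26 autosomal genes called, 20 were members, by symbol, of the immune lists. These lists hold interferon effectors, interferon-inducible GTPases, interferon or Toll-like receptor signalling, nucleic acid sensors and MHC class I genes. They were chosen with earlier results of these data known, so the count is a description and carries no test. Log2 fold changes of all 26 genes ran from 0.39 to 1.85 with a median of 0.95, against a median of 0.00 over all autosomal genes. These genes lay on 15 chromosomes, and 5 pairs of them lay within 1000 kb of each other. In 22 of the 26, every XYF library stood above every XXF library, a separation seen in 65 of 13275 autosomal genes (0.490%). The 26 were chosen by the same contrast in the same libraries, so their median and their separation follow largely from that choice and carry no test. Of the 26, 17 had a mean under 10 CPM in XXF, so their levels rest on few reads.

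The promoters of several of these genes show what they share in sequence. The reference tables held a promoter window, 250 bases before to 50 after the start, for 10908 of the 13766 genes and for 20 of the 26 autosomal genes called. The core of the ISRE was searched on both strands as GAAA, any 2 bases and GAAA again. It was found in 13 of these 20 windows (65.0%) and in 387 of the 10908 (3.55%). The gamma-activated site, searched as TTCNNNGAA, which reads alike on both strands, was found in 2 of the 20 and in 891 of the 10908 (8.17%). The stretches below come from 4 antiviral effectors, a GTPase and the MHC class I light chain, and are shown because their levels are described next. Each is 90 bases from the RefSeq window of build GRCm38.p6, written 5′ to 3′ on the strand of the gene, and capitals mark the matches to the ISRE core or its reverse complement.

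Ifit1, chr19:34640769-34640858, plus strand: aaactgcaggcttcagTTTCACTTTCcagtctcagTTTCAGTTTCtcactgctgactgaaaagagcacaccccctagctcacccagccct
Ifit3, chr19:34583372-34583461, plus strand: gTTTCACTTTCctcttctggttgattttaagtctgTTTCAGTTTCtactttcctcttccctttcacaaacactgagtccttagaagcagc
Isg15, chr4:156200830-156200919, minus strand: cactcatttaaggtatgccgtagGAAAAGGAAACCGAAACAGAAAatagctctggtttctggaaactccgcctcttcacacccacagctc
Rsad2, chr12:26456518-26456607, minus strand: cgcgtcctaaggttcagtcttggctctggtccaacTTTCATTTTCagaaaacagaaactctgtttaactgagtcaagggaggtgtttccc
Gbp3, chr3:142559970-142560059, plus strand: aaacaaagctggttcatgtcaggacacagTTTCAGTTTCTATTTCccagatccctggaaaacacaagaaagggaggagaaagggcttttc
B2m, chr2:122147513-122147602, plus strand: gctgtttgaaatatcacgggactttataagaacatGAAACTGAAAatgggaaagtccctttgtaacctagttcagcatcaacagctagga

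The core was present in all 8 interferon-inducible GTPase promoters with a window and in 11 of 23 effector promoters (47.8%). It was present in 5 of 18 promoters of the MHC class I list (27.8%) and in 1 of 6 promoters of the distal X block described further on (16.7%), that of Arhgap6. The gamma-activated site was found in 5 of the 8 GTPase promoters (62.5%) and in 6 of the 23 effector promoters (26.1%). It was found in 2 of the 18 MHC class I promoters (11.1%) and in 0 of the 6 block promoters. A match describes letters in the window and not binding of a factor.

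Among the antiviral effectors, 5 of 30 measured genes rose and 0 fell. The other 25 did not pass, and all 30 had a positive log2 fold change, with a median of 0.82 against 0.01 over all 13766 genes. Another 11 listed genes were not measured. The deposited table kept a gene where every library of at least 1 of the 4 groups reached 20. A gene low in XXF could thus enter through XYF, so the count of positive members carries no test. Oasl2, a relative of the oligoadenylate synthetases that sense double-stranded RNA, stood at 4.18, 4.92, 2.80, 3.92 and 4.27 CPM in XXF replicates 1 to 5. In XYF it stood at 8.81, 16.2, 16.3, 14.4, 15.7 and 14.8 CPM in replicates 1 to 6. The lowest XYF library, replicate 1, still lay above the highest XXF library, and by the edgeR fit the level was 3.60-fold higher in XYF. The log2 fold change was 1.85 ± 0.25 (SE), with an edgeR adjusted p of 9.69e-05.

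Ifit1, which binds viral RNA ends and blocks their translation, stood at 3.38, 5.21, 3.78, 3.26 and 2.09 CPM in XXF and at 6.52, 10.8, 11.6, 10.6, 14.2 and 10.7 CPM in XYF. The groups did not overlap, XYF replicate 1 was again the lowest of its group, and the log2 fold change was 1.61 ± 0.25 (adjusted p = 0.000638 by edgeR). Its neighbour Ifit3, a partner in the same protein complex, stood at 7.48 to 12.2 CPM in XXF and between 15.2 and 31.1 CPM in XYF with a median of 27.7 CPM, a log2 fold change of 1.35 ± 0.19 (adjusted p = 0.000227 by edgeR). I830012O16Rik, between these genes on chromosome 19 and not counted on the effector list under that symbol, rose by 1.08 on the log2 scale. With the level of the red blood cell genes as a covariate that value was 0.63 and the call was lost (adjusted p = 0.393 by edgeR). The Ifit genes are a family of close copies, and reads could be split among them in counting, so single values of the family are uncertain.

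Rsad2 (viperin), which makes a nucleotide that stops viral polymerases, rose from 1.99 ± 0.41 CPM in XXF (SD, n = 5) to 4.90 ± 1.36 CPM in XYF (SD, n = 6). Without XXF replicate 1 it missed the threshold, with an edgeR adjusted p of 0.0521. Isg15, a ubiquitin-like tag put on other proteins, rose from 1.55 ± 0.25 to 3.26 ± 0.43 CPM, and its groups did not overlap. Without XXF replicate 1 and XYF replicate 5 together, edgeR adjusted p was 0.156 for Rsad2 and 0.0619 for Isg15. With the red blood cell covariate it was 0.336 and 0.426, so both calls were lost in either fit.

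**Figure D1:**
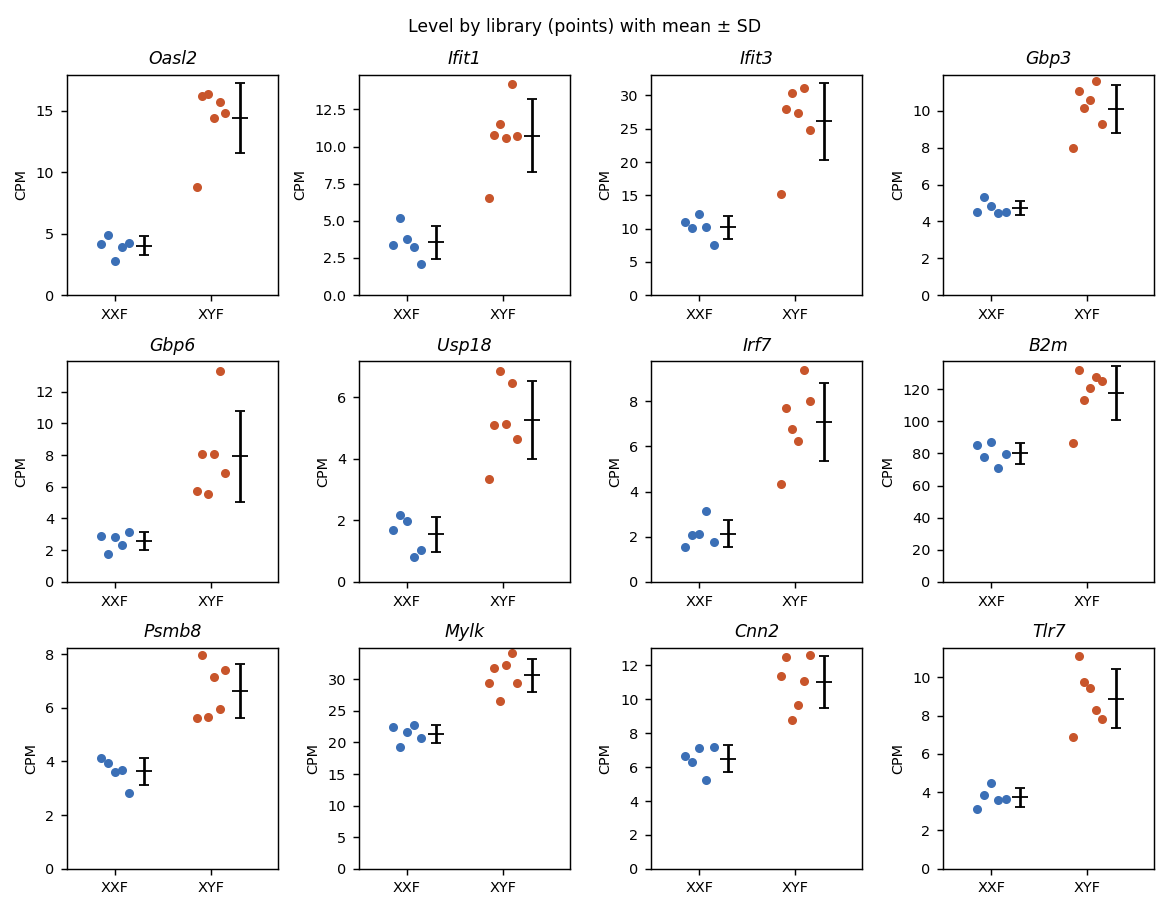
CPM of 12 genes in each XXF (blue, n = 5) and XYF (orange, n = 6) library, with the mean and SD beside the points on linear axes from 0. The groups do not overlap in 11 of the 12, B2m being the exception through XYF replicate 1, and in Oasl2, Ifit1 and Usp18 that library is the lowest of its group.

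The interferon-inducible GTPases, which attack membranes around intracellular pathogens, changed in more than 5 of their members. Of 13 measured genes 7 rose, 0 fell and 6 did not pass; all 13 were positive, with a median log2 fold change of 0.71. Gbp3 had the smallest p of any autosomal gene. It stood at 4.49, 5.31, 4.83, 4.46 and 4.51 CPM in XXF and at 7.99, 11.1, 10.1, 10.6, 11.6 and 9.26 CPM in XYF. Its groups were far apart relative to their spread, and the log2 fold change was 1.10 ± 0.14 (adjusted p = 1.73e-05 by edgeR).

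Gbp6 stood at 1.77 to 3.14 CPM in XXF and at 5.51 to 13.3 CPM in XYF, with a log2 fold change of 1.60 ± 0.26 (adjusted p = 0.00154 by edgeR). Iigp1, an immunity-related GTPase, stood at 1.81 to 2.66 CPM in XXF and at 3.92 to 9.17 CPM in XYF, with a log2 fold change of 1.42 ± 0.25 (adjusted p = 0.00305 by edgeR). In both genes XYF replicate 5, the library with the high choroid plexus sum, was the highest. Irgm1, a regulator of the other GTPases, rose by 0.64 ± 0.13 on the log2 scale with groups that overlapped slightly (XXF up to 11.3 CPM, XYF from 11.3 CPM). Its call was lost when XXF replicate 2 or 4 or XYF replicate 2 or 5 was left out, with edgeR adjusted p up to 0.0655. Gbp2 (log2 fold change 0.74), Gbp10 (1.56) and Irgm2 (0.75), named after their values were seen, passed more narrowly still. Their calls were lost on leaving out 9, 7 and 6 of the 11 libraries in turn, with edgeR adjusted p up to 0.147, 0.120 and 0.177. The Gbp genes too are close copies, and their single values are uncertain in the same way.

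Of 16 measured genes of the step that carries the signal from the interferon receptors, 2 rose, Usp18 among them, 0 fell and the median log2 fold change was 0.02. Usp18, a protease that takes the ubiquitin-like protein Isg15 off its targets and dampens interferon receptors, stood at 1.69, 2.16, 1.97, 0.822 and 1.05 CPM in XXF and at 3.34, 5.11, 6.86, 5.14, 6.46 and 4.65 CPM in XYF. Every XYF library lay above the XXF libraries, and a log2 fold change of 1.81 ± 0.32 passed the test (adjusted p = 0.00396 by edgeR). Irf9, a subunit of the ISRE-binding complex, had groups that did not overlap (8.93 to 13.1 CPM in XXF, 14.8 to 21.1 CPM in XYF) and a log2 fold change of 0.56 that did not pass (adjusted p = 0.321 by edgeR). Irf2, which competes at the same sites, had a log2 fold change of -0.11 and did not pass.

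On the side of sensing, 2 of 21 genes of endosomal Toll-like receptor signalling rose, with a list median of 0.04. Irf7, the factor that drives interferon genes downstream of Tlr7, stood at 1.56, 2.07, 2.14, 3.15 and 1.77 CPM in XXF and at 4.35, 7.71, 6.78, 6.23, 9.37 and 7.99 CPM in XYF. That was a log2 fold change of 1.69 ± 0.29 (adjusted p = 0.00305 by edgeR). The call was lost without XXF replicate 1 and XYF replicate 5 together (adjusted p = 0.0562 by edgeR) and with the red blood cell covariate (adjusted p = 0.189 by edgeR). Irf7 is itself induced by interferon. Ctss, a lysosomal protease that trims Toll-like receptors and is abundant in microglia, rose by 0.53 ± 0.11 on the log2 scale. Its call was lost on leaving out any of XXF replicates 1, 2 and 5 and XYF replicates 2 and 3, with edgeR adjusted p up to 0.0612. It was also lost without XXF replicate 1 and XYF replicate 5 together (adjusted p = 0.0562 by edgeR), and with the red blood cell covariate the log2 fold change was 0.29 (adjusted p = 0.981 by edgeR). Unc93b1, the chaperone that brings Tlr7 to endosomes, stood at 13.4 to 15.7 CPM in XXF and 16.1 to 18.3 CPM in XYF, and its log2 fold change of 0.25 did not pass (adjusted p = 0.567 by edgeR). Of 8 cytosolic sensors and adaptors only Ddx58 was called, at 4.67 to 7.97 CPM in XXF and 9.73 to 14.05 CPM in XYF, a log2 fold change of 0.75 ± 0.15. The call was lost without XXF replicate 3 or 5, with edgeR adjusted p up to 0.0612. The related sensor Ifih1 had a log2 fold change of 0.61 and did not pass (adjusted p = 0.483 by edgeR).

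In the MHC class I pathway 3 of 20 measured genes rose, 0 fell, and 19 of 20 were positive (median 0.33 on the log2 scale). Genes entered this list by the same rule as the effectors, so its count of positive members carries no test either. B2m, the light chain of every class I molecule, stood at 85.3, 77.5, 86.9, 70.7 and 79.9 CPM in XXF and at 86.2, 132, 113, 121, 128 and 125 CPM in XYF. XYF replicate 1 lay among the XXF libraries and the other 5 above them, and the log2 fold change was 0.55 ± 0.10 (adjusted p = 0.00396 by edgeR). Psmb8, a subunit of the immunoproteasome that cuts peptides for class I, rose from 3.64 ± 0.50 to 6.62 ± 1.01 CPM without overlap. The heavy chain H2-D1 rose by 0.66 on the log2 scale (adjusted p = 0.0263 by edgeR), and here too only XYF replicate 1, at 51.7 CPM, lay within the XXF range of 39.0 to 53.2 CPM. Its call was lost on leaving out 9 of the 11 libraries in turn, with edgeR adjusted p up to 0.158, and with the red blood cell covariate its log2 fold change was 0.38 (adjusted p = 1.0 by edgeR). H2-K1 was close to it in size, with a log2 fold change of 0.59, and did not pass (adjusted p = 0.0646 by edgeR). It was called by DESeq2, with the choroid plexus covariate and without XYF replicate 1, with adjusted p between 0.00479 and 0.00622. Class I heavy chains are near-identical copies and their single values are uncertain. Of 4 measured MHC class II genes 0 were called by edgeR, and none of the 14 complement genes passed. C4b, an opsonin of the complement cascade, stood at 73.3 to 106 CPM in XXF and 114 to 142 CPM in XYF, and its log2 fold change of 0.46 did not pass (adjusted p = 0.0687 by edgeR). It was called in 5 alternatives, DESeq2 among them, with adjusted p between 0.00821 and 0.0485.

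The other 6 autosomal genes called were not on the immune lists by symbol. I830012O16Rik is among them and is described above with its neighbours Ifit3 and Ifit1, so being off the lists does not make a gene non-immune. Mylk, the kinase of the myosin light chain in contractile cells, stood at 22.5, 19.3, 21.7, 22.8 and 20.8 CPM in XXF and at 29.4, 31.7, 26.6, 32.3, 34.2 and 29.5 CPM in XYF. Cnn2, an actin-binding calponin, stood at 5.23 to 7.16 CPM in XXF and at 8.79 to 12.6 CPM in XYF. The groups did not overlap in either gene, and the log2 fold changes were 0.51 ± 0.08 (adjusted p = 0.00102 by edgeR) and 0.77 ± 0.14 (adjusted p = 0.00380 by edgeR). They were the only 2 called among 22 measured genes of smooth muscle, actin cytoskeleton and SRF targets, a list whose median was 0.06. Sh3bgr stood at 0.590 to 1.29 CPM in XXF, at 0.745 CPM in XYF replicate 3 and at 2.40 to 3.45 CPM in the other XYF libraries. Its log2 fold change of 1.34 lost its call on leaving out XXF replicate 1, 2 or 5 or XYF replicate 1 or 6, with edgeR adjusted p up to 0.0706. Net1, an exchange factor for the GTPase RhoA, and Mpeg1, a pore-forming protein of macrophages, were named after their values were seen. They rose by 0.41 and 0.39 on the log2 scale and lost their calls on leaving out 7 and 9 of the 11 libraries in turn. On the lower side the smallest p belonged to the signalling ligand Wnt10a, at 2.66 to 4.44 CPM in XXF and 1.65 to 2.60 CPM in XYF. Its log2 fold change of -0.76 did not pass (adjusted p = 0.0687 by edgeR). It was called by DESeq2, by limma on the deposited log2 values and by edgeR without XXF replicate 5, with adjusted p between 0.0257 and 0.0406. D8Ertd82e and Sgpp2, next on that side, did not pass either, with log2 fold changes of -0.36 and -0.39.

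**Figure D2:**
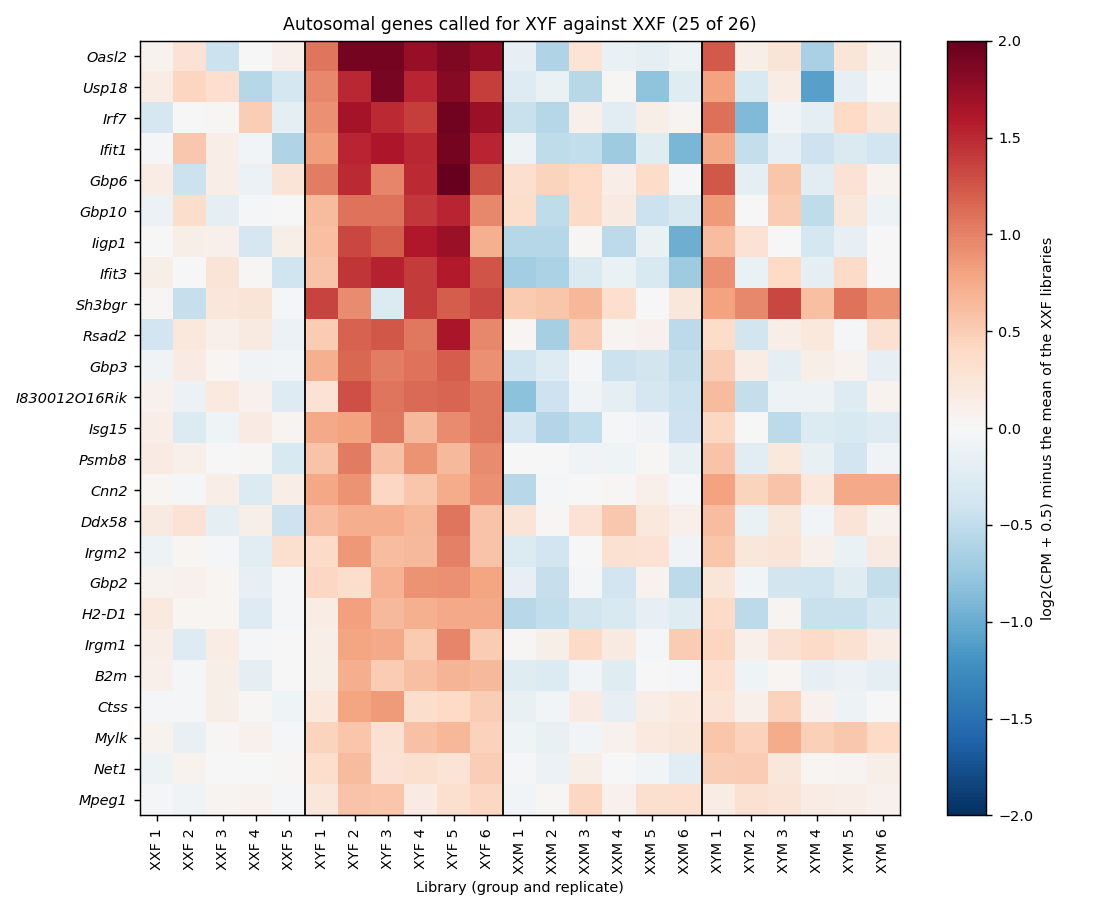
Each row is an autosomal gene called, with 25 of the 26 drawn, and each column 1 of the 23 libraries, coloured by log2(CPM + 0.5) minus the mean of the XXF libraries, with the scale ending at 2 in either direction. XYF libraries are above the XXF mean in nearly every row, XYF replicate 1 is the palest of them, and among the animals with testes XYM replicate 1 is the darkest.

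The XYF libraries differed among themselves in how far they stood above XXF. Over the 26 genes the median difference from the XXF mean, on the log2 CPM scale, was 0.61 in XYF replicate 1 and between 0.83 and 1.12 in the other 5 libraries. XYF replicate 1 was the lowest of its group in 17 of the 26 genes and XYF replicate 5 the highest in 14. Summed over the 30 effectors, XYF libraries ran from 230 to 375 CPM and XXF libraries from 177 to 203 CPM, without overlap. Summed over the 13 GTPases they ran from 70.8 to 127 CPM and from 48.9 to 59.2 CPM. The order of the libraries was chosen here by the genes called and carries no test.

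Markers of other tissue moved with part of this order. XYF replicate 5, with the highest effector sum, had the highest choroid plexus sum (5894 CPM). XYF replicate 1, with the lowest effector sum, had the lowest sum of red blood cell genes in XYF (108 CPM). The rest of the order was not matched. The red blood cell sum was 143 CPM in XYF replicate 5. It was highest in XYF replicates 3 and 2 (256 and 237 CPM), whose effector sums were 303 and 300 CPM. All 10 measured choroid plexus markers were positive (median 0.43 on the log2 scale), as were all 3 red blood cell genes (median 0.67), and 0 of them were called by edgeR. With the choroid plexus level as a covariate 40 autosomal genes were called, among them all 26. Without XXF replicate 1 and XYF replicate 5 together, 14 were called, 13 of them among the 26, whose median log2 fold change was then 0.98. The choroid plexus rich libraries with testes stayed in that fit and its shared spread. The 13 lost had adjusted p from 0.0562 to 0.314 by edgeR. With the level of the red blood cell genes as a covariate 7 were called, among them Gbp3, Oasl2, Ifit3, Ifit1, Mylk and Sh3bgr. The other 19 calls were lost, with an edgeR adjusted p of 0.0577 or more. Among them were Gbp6 (0.0577), Cnn2 (0.0809), Iigp1 (0.136), Usp18 (0.243), B2m (0.432), Psmb8 (0.432) and Ddx58 (0.466). The median log2 fold change of the 26 was then 0.70, and all 26 remained positive. Both of these last fits were chosen after the data were seen. The part of red blood cell content in the result was not tested beyond this fit.

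Markers of the resident cell types gave few calls. Of 16 microglia markers Ctss alone was called, and the median was 0.09. Csf1r, the receptor that keeps microglia alive, stood at 92.6 to 113 CPM in XXF and 97.5 to 124 CPM in XYF, and Fcrls had a log2 fold change of -0.31. Neither passed. The summed level of microglia markers was 600 to 676 CPM in XXF and 627 to 798 CPM in XYF, and the groups overlapped. Of 8 T cell markers only the general leucocyte gene Ptprc was measured, at a log2 fold change of 0.51 that did not pass (adjusted p = 0.357 by edgeR). None of the 3 measured markers of perivascular macrophages passed. In bulk tissue, more cells of a type and more RNA per cell cannot be told apart.

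Of 11 astrocyte, 12 oligodendrocyte, 7 oligodendrocyte precursor, 13 endothelial and 9 mural cell genes, 0 were called, and the list medians lay between -0.10 and -0.02. The same held for 6 dentate gyrus, 5 CA1, 8 CA2 and CA3 and 11 interneuron markers, with medians of 0.11, -0.22, 0.09 and -0.03. Tdo2, a tryptophan-degrading enzyme found in granule cells, stood at 4.11 to 7.02 CPM in XXF and 6.99 to 12.3 CPM in XYF, and its log2 fold change of 0.79 did not pass (adjusted p = 0.114 by edgeR). It was called by DESeq2, by limma-voom with sample quality weights and by edgeR without XXF replicate 1 and XYF replicate 5 together. Adjusted p of these tests lay between 0.0133 and 0.0460. None of 29 genes of glutamate synapses, 13 GABA receptor genes, 24 nuclear genes of oxidative phosphorylation and 15 genes of cholesterol synthesis and uptake was called, with medians between -0.05 and 0.04. The largest log2 fold change among the synaptic genes was that of Unc13c, a vesicle priming factor, at -0.54 (adjusted p = 0.383 by edgeR). None of 14 immediate early, 14 clock and 10 glucocorticoid-responsive genes and 5 steroid receptor genes was called, and their medians lay between -0.02 and 0.07. In simulated data with 200 of 13766 genes changed, edgeR recovered 76% at a 1.5-fold change and 93% at a 2-fold change. The simulated libraries did not differ in tissue content, and 200 changed genes make the adjusted threshold easier to reach. These shares may therefore be too high for the data. Of the 30 effectors, whose median log2 fold change was 0.82, 5 were called. Changes of that size and smaller ones in these lists may have gone undetected.

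**Figure D3:**
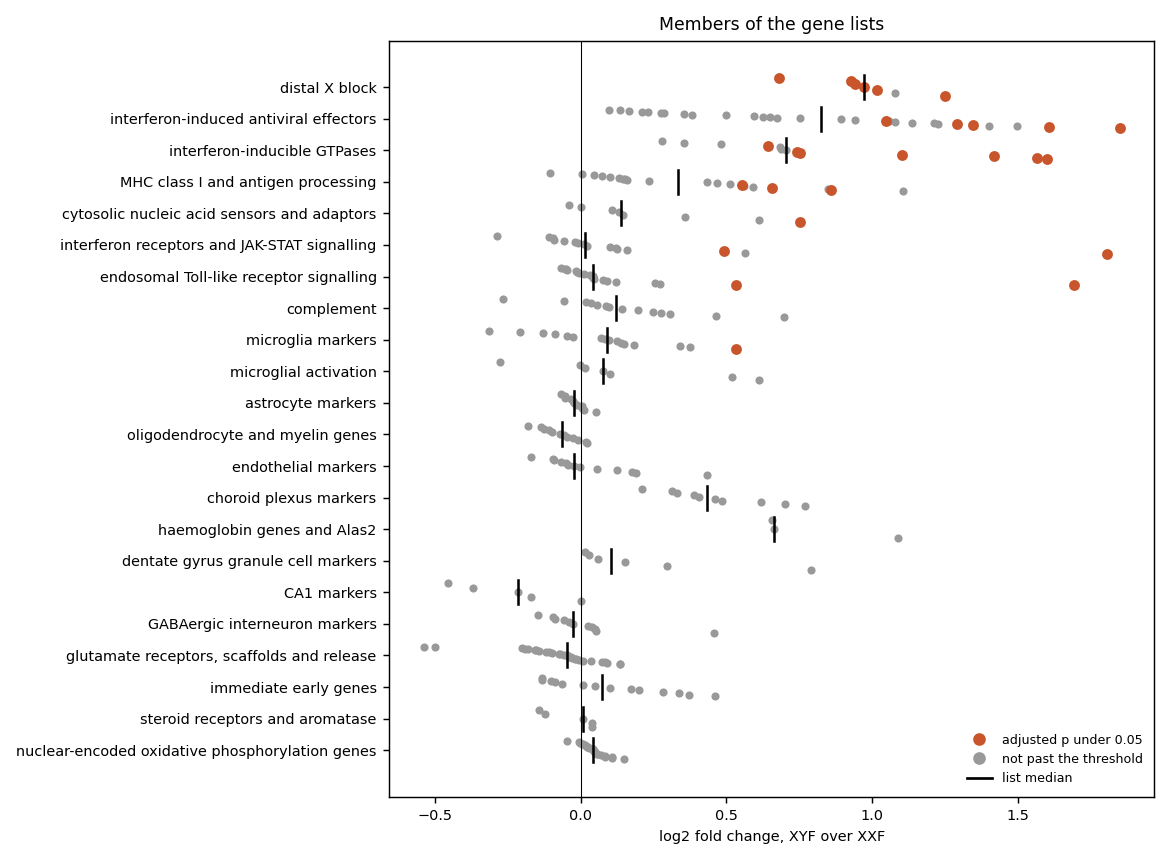
Log2 fold change (XYF over XXF) of the measured members of 22 gene lists, with genes past the edgeR threshold in orange and list medians as black bars. The distal X block, effectors and GTPases lie to the right of 0 with all their members, and the lists of astrocytes, oligodendrocytes and endothelial cells centre near 0.

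X-linked genes fell into 3 kinds. Of 486 measured, 10 were called (2.06%): 6 higher, all in a block near the distal end of the chromosome, and 4 lower, namely Xist and 3 genes with a Y-linked partner. Xist differed by -6.42 on the log2 scale, a value set largely by XYF replicate 4. Without that library it was -9.53. Eif2s3x, a subunit of a translation initiation factor that escapes X inactivation, stood at 206, 210, 221, 212 and 218 CPM in XXF and at 134, 142, 148, 153, 127 and 143 CPM in XYF. Its log2 fold change was -0.60 ± 0.06 (adjusted p = 2.19e-07 by edgeR). Kdm6a and Kdm5c, demethylases of histone H3, differed by -0.52 ± 0.08 (adjusted p = 0.000811 by edgeR) and -0.41 ± 0.07 (adjusted p = 0.00374 by edgeR). In these 3 genes every XYF library lay below every XXF library.

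The RNA helicase Ddx3x stood at 340 to 409 CPM in XXF and 265 to 368 CPM in XYF, and its log2 fold change of -0.23 did not pass (adjusted p = 0.471 by edgeR). The remaining partners, Usp9x, Uba1, Zfx and Rbmx, lay between -0.05 and 0.05. Of other genes known to escape, 5530601H04Rik had non-overlapping groups and a log2 fold change of -0.37, and Mid1 had -0.12. Neither passed. On the Y chromosome Eif2s3y, the partner of Eif2s3x, stood at 34.9 to 55.9 CPM in XYF, and Kdm5d and Uty at 22.5 to 38.6 and 12.8 to 23.5 CPM. The levels of partners are per library and not per length, so X and Y copies are not compared with each other. No fold is given for them, since the XXF libraries were at or near 0. Erdr1, of the region that X and Y share, had a log2 fold change of -0.64 and did not pass (adjusted p = 0.962 by edgeR), and is named after its values were seen.

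The block on the distal X held 7 measured genes that followed each other without a gap among the measured genes, between positions 167207094 and 169320343 of build mm10. All 7 stood higher in every XYF than in every XXF library, 6 were called, and the median log2 fold change was 0.97. Msl3, a subunit of a chromatin complex, stood at 23.6, 22.5, 27.8, 21.4 and 23.8 CPM in XXF and at 45.6, 45.7, 46.9, 44.8, 40.5 and 47.9 CPM in XYF. The log2 fold change was 0.93 ± 0.07 (adjusted p = 7.91e-10 by edgeR). Tlr7 stood at 3.11, 3.84, 4.50, 3.61 and 3.62 CPM in XXF and at 6.87, 11.1, 9.76, 9.43, 8.31 and 7.82 CPM in XYF. This receptor for single-stranded RNA was 2.38-fold higher in XYF, with a log2 fold change of 1.25 ± 0.16 (adjusted p = 2.58e-05 by edgeR).

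Hccs, which attaches haem to cytochromes c, and Frmpd4, a scaffold of synapses, differed by 0.97 ± 0.08 and 0.94 ± 0.08 on the log2 scale. Prps2, an enzyme that makes the precursor of nucleotides, differed by 1.02 ± 0.12. Tmsb4x, which holds actin monomers, had the smallest difference of the block, 0.68 ± 0.10, from 627 ± 69.8 CPM in XXF to 1005 ± 121 CPM in XYF. Arhgap6, a GTPase-activating protein, stood at 5.02 to 10.3 CPM in XXF and 11.1 to 27.9 CPM in XYF and did not pass (log2 fold change 1.08 ± 0.26, edgeR adjusted p = 0.0794). It was called by DESeq2 (adjusted p = 0.0320), with the red blood cell covariate (adjusted p = 0.00489 by edgeR) and without XYM replicate 5. Of these, 6 lie near a log2 fold change of 1, the value of a doubling. The 10 measured flanking genes were all uncalled, with a median of -0.00 and a range of -0.27 to 0.12. All of them but Mid1 lay before the block in the order along the chromosome. Mid1, given above as an escape gene, was the only gene of this list beyond the block, so the list says little about that border. The 9 autosomal or X-linked partners of the block genes had a median of 0.02, and 0 of them were called. A move of a distal piece of the X chromosome to the Y has been described elsewhere for FCG mice. Whether these animals carried it was not tested, since copy number was not measured here.

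Outside Xist, the partners, the escape genes and the block, 468 X-linked genes were measured and 0 were called by edgeR. Their median log2 fold change was 0.02, with -0.19 at the 5th and 0.26 at the 95th percentile. Over all X-linked genes 29 had an unadjusted p under 0.05.

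**Figure D4:**
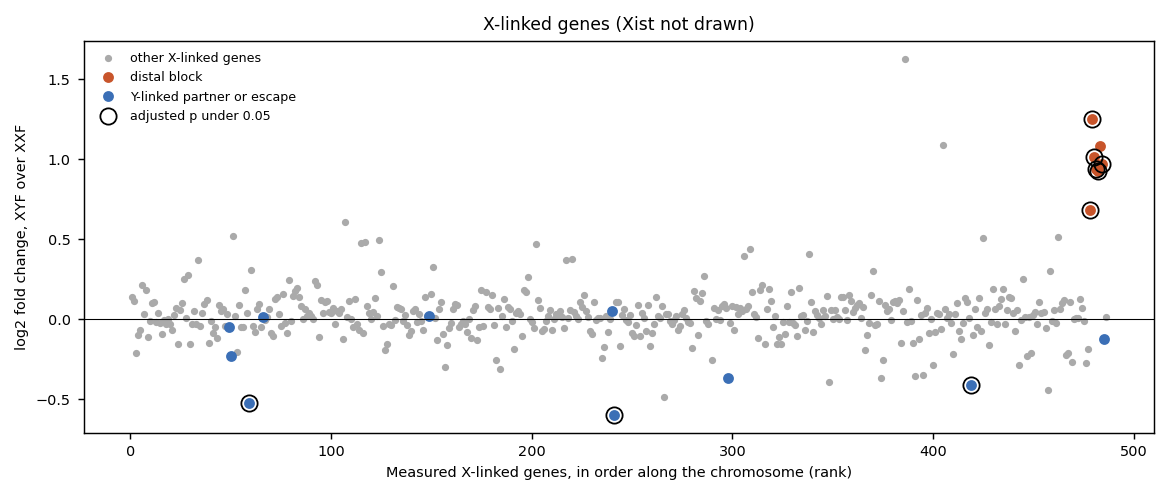
Log2 fold change (XYF over XXF) of the measured X-linked genes except Xist, by rank along the chromosome, with black rings around genes past the edgeR threshold. The 7 genes of the distal block stand together between 0.68 and 1.25 at the right end, 3 partner genes lie below -0.40, and the other genes scatter around 0.

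The same sex chromosome contrast in animals with testes, XYM against XXM, was called in 16 of 13766 genes (0.116%). All 7 block genes were higher there too, with a median of 0.86 and 6 called, and in no block gene did the unadjusted p of the difference between gonads fall below 0.05. Mylk and Cnn2 were the 2 autosomal genes called, with log2 fold changes of 0.50 and 0.71 beside 0.51 and 0.77 with ovaries. Ifit3 had the highest value with testes of the 26 genes called with ovaries, a log2 fold change of 0.77 that did not pass. Oasl2 was at 3.57 ± 0.79 CPM in XXM (SD, n = 6) and 5.08 ± 2.55 CPM in XYM (SD, n = 6), where XYM replicate 1 had 9.95 CPM and the other 5 had 2.36 to 4.85 CPM. Over the 26 genes the median log2 fold change with testes was 0.29, with a range of -0.06 to 0.77, and it was smaller than with ovaries in each of them. Over the effectors it was 0.11 and over the GTPases 0.19.

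The difference between gonads was tested for every gene and 0 of 13766 (0.00%) passed by edgeR, DESeq2, limma-voom or limma on the deposited log2 values. At an unadjusted p under 0.05 edgeR gave 444 genes. The smallest adjusted p was 0.670, and Tm7sf2, a sterol reductase, was among the genes that had it. Tm7sf2 had a difference of -0.52 ± 0.11 on the log2 scale between a log2 fold change of -0.17 with ovaries and of 0.35 with testes. Among the 26 genes, 22 had an unadjusted p under 0.05 for the difference, but they were chosen by a contrast that enters it, so this count is no support for a difference. No gene was therefore shown to differ between gonads, which does not show that the effects were alike. XYM replicate 1 had a median of 0.61 above the XXF mean over the 26 genes, against -0.14 to 0.23 in the other XYM libraries. It also had the highest choroid plexus sum of its group (4679 CPM, others 316 to 577 CPM). The same held for its red blood cell sum (142 CPM, others 61.6 to 88.2 CPM). The choroid plexus list had a median log2 fold change of -1.54 with testes, against 0.43 with ovaries. The part of such tissue in these levels was not tested. Without XYM replicate 1, Gbp6, Oasl2 and Bst2 (the last named after its values were seen) passed the test of the difference. Their edgeR adjusted p were 0.0280, 0.0280 and 0.0358 in that order. Without XYF replicate 1 the count was 1.

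**Figure D5:**
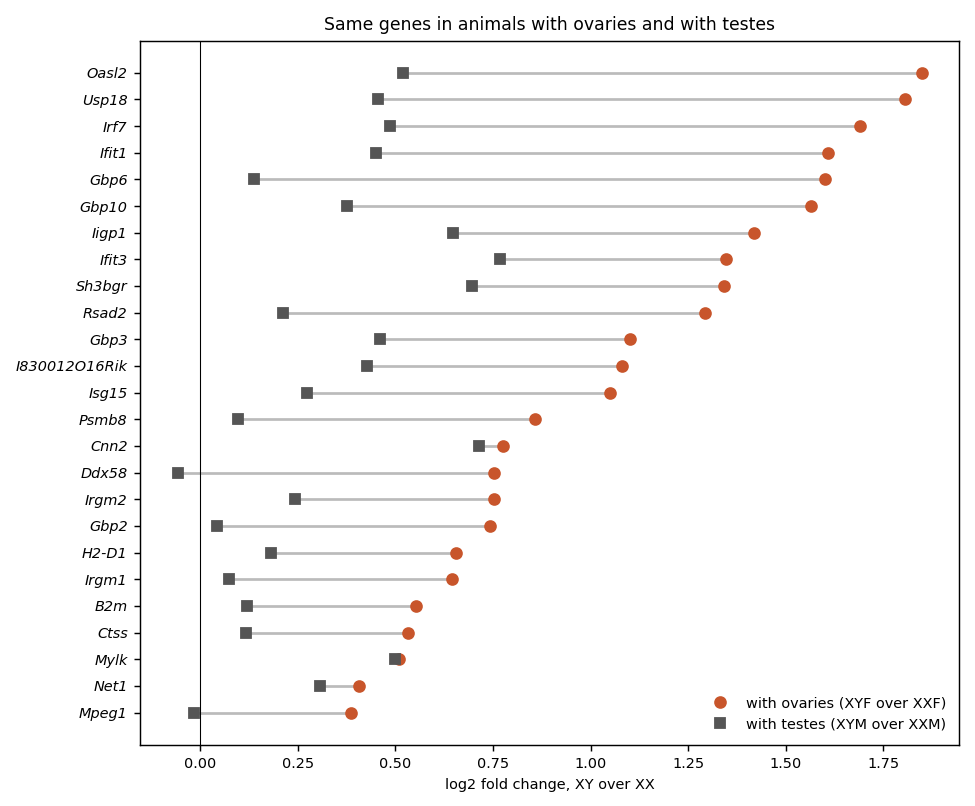
Log2 fold change, XY over XX, of 25 of the 26 autosomal genes called with ovaries (circles) and of the same genes with testes (squares). Circles lie to the right of squares in every gene drawn, the genes having been chosen by the contrast the circles show, and the points nearly coincide for Mylk and lie close for Cnn2.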

How the data were processed

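Total RNA of frozen hippocampus was depleted of ribosomal RNA and made into strand-specific libraries, per the labels' protocols. The deposited table gives estimated counts per gene as the authors' raw values, per the file headers, which were rounded to whole numbers here. It also gives log2 values normalized by the authors, per the file headers, which served 1 alternative test. The submitters' processing notes name mm10 and DESeq; aligner, counting program and use of strand are not stated there, so overlapping and antisense genes are uncertain. Per the file headers, a gene was kept where every library of at least 1 of the 4 groups reached 20, and the rest are not analysed here. 0 value columns lacked a library.

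TMM scaling (trimmed mean of M-values) and the quasi-likelihood test of edgeR 4.0.16 (R 4.3.3) were applied to all 4 groups, each with its own mean, with 1 shared spread over 23 libraries and Benjamini-Hochberg adjustment over 13766 genes, 2-sided. The filterByExpr function removed no gene. Log2 CPM used a prior count of 2. Each standard error is the size of the log2 fold change divided by the root of its F statistic. Alternatives used DESeq2 1.42.0 and limma 3.58.1, other scalings, covariates and each library left out. The fit was tested on simulated data in which 200 of the 13766 genes had been changed; 5.06% of its calls were false. Spearman correlations within groups were 0.983 to 0.996. Each library is from a different animal; replicate numbers follow accession order and pair nothing.

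Members and gene lists were chosen with earlier results of these data known. Genes were named by rule: Xist and Y-linked genes; X-linked partner, escape, distal block and flanking genes; up to 20 autosomal genes called per direction by smallest p, or the 3 with the smallest p where fewer than 3 passed; up to 4 members per list; and the 2 autosomal genes with the smallest p for the difference between gonads. 1 gene called is in the counts and is not reported here by name. Promoter windows are from RefSeq.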

Additional observations from a re-analysis of the deposited data

Results flagged for a closer look

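Of 196 groups of libraries examined (98 genes in XXF and in XYF), 22 held a library at one end that stood apart from the others by Dixon's criterion. Chance flags about 1 in 20 groups, so part of these are chance, and no explanation was tested for any of them.

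Among the sex chromosome genes, Xist in XYF replicate 4 stood at 94.1 CPM (others 0.508 to 2.79 CPM). In XXF replicate 3, Ddx3y stood at 0.219 CPM and Eif2s3y at 0.274 CPM, while the other XXF libraries were at or below 0.0444 CPM for both. XYF replicate 6 was low in 5530601H04Rik at 6.26 CPM, and XYF replicate 5 was high in Prps2 at 93.5 CPM.

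XYF replicate 1 was the low library in 4 immune genes: Oasl2 at 8.81 CPM (others 14.4 to 16.3 CPM), I830012O16Rik at 5.86 CPM, Ifih1 at 5.43 CPM and H2-D1 at 51.7 CPM. XYF replicate 5 was the high library in Gbp6 at 13.3 CPM (others 5.51 to 8.08 CPM), Ddx58 at 14.05 CPM, Irf2 at 28.8 CPM and Nr3c1, the glucocorticoid receptor, at 123.9 CPM. XXF replicate 1, the XXF library rich in choroid plexus markers, was high in Otx2 at 8.84 CPM (others 0.110 to 1.77 CPM), Aim2 at 8.71 CPM and Osmr at 8.93 CPM. XXF replicate 2 was high in Gbp10 at 1.18 CPM.

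XYF replicate 2 was high in Osmr at 10.3 CPM and low in the fibroblast gene Dcn at 51.4 CPM. XXF replicate 5 was low in Alas2 at 2.49 CPM, and XXF replicate 3 was high in Unc13c at 55.7 CPM. XYF replicate 4 was high in Rgs9 at 108 CPM (others 24.2 to 29.7 CPM).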

How the results depend on the processing

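Of the 40 genes called, 19 stayed called under all 22 alternatives wherever an adjusted p was given, 13 of them on the X or Y chromosome and the others including Gbp3, Oasl2, Ifit3, Ifit1 and Mylk. None of the 40 turned its direction. The number of X-linked genes called was 10 under all 22, but not of the same genes: Arhgap6 was called with DESeq2, which gave Xist no adjusted p, and with the haemoglobin covariate, which ended the call of Kdm5c. The autosomal count of 26 became 44 with DESeq2 and 40 with the choroid plexus covariate. It was 14 without XXF replicate 1 and XYF replicate 5, the choroid plexus rich libraries with ovaries, while those with testes were kept. It was 7 with the haemoglobin covariate, where the count over all genes was 21 and Kdm5c missed the threshold (adjusted p = 0.200 by edgeR). The cause of these shifts was not tested. Under the remaining alternatives the autosomal count lay between 23 and 37. Leaving out each library in turn gave 18 to 32 autosomal genes and 32 to 46 genes in all. Autosomal genes lower in XYF were called with DESeq2 (2), sample quality weights (3) and the deposited log2 values (2), and 1 each without XXF replicate 5 and without XYF replicate 6.

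The count for the difference between gonads was 0 to 3 on leaving out each library in turn, being 1 without XYF replicate 1 and 3 without XYM replicate 1, and 0 under the other alternatives. Directions turned in genes that were not called. Mid1 had 0.015 and Gabrb1 0.000195 with the haemoglobin covariate. With sample quality weights Slc1a2 had 4.64e-05, Kcnj8 0.0093 and Otx2 -0.033. On leaving out each library in turn, Uba1 ran from -0.011 to 0.030, Zfx from -0.0040 to 0.12, Rbmx from -0.035 to 0.058 and Otx2 from -0.073 to 1.99. No paired analysis was possible because the replicate numbers follow accession order and the labels tie no library of one group to one of another. For genes that were not called, this depth and number of animals may not show a small difference.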
